A study of Homo sapiens with 3 samples.

Results

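Metallothioneins are small cysteine-rich proteins that bind zinc, copper and cadmium, and zinc exporters carry zinc out of the cytosol. The 9 genes described here were taken from the deposited gene table by name: the metallothionein genes MT1A, MT1E, MT1F, MT1G, MT1M, MT1X and MT2A, the gene of the zinc sensor MTF1, and SLC30A1, which encodes the zinc exporter of the plasma membrane. All 9 had a row among 50867 genes. Of the 9, 6 had at least 1 count in some library, and 5 (MT2A, MT1F, MT1X, MTF1 and SLC30A1) reached the mean level of 1 CPM (a gene's count scaled to a library of fixed size) needed for a test, as 15132 genes did in all.

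Expression was measured by polyA+ RNA sequencing in 3 libraries of UM-UC-3 cells, a line grown from a human bladder cancer. Each carried a lentiviral short hairpin RNA and was kept under puromycin for stable expression: shRNA 1 against the long non-coding RNA BLACAT2 (1 library), shRNA 2 against the same RNA (1 library), or a scramble sequence (1 library, the control). The 2 BLACAT2 hairpins form the group shBLACAT2 (n = 2), set against shControl (n = 1). The labels do not speak of repeated cultures, so p-values measure only the spread between these libraries.

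The libraries held 17670199 counts with shRNA 1, 16216947 with shRNA 2 and 16424422 in the control. BLACAT2, listed as LINC00958, had 816 and 1062 counts with shRNA 1 and shRNA 2, against 938 in the control, or 73.5% and 99.6% of the control level after scaling, so depletion was not detected in these counts with shRNA 2. Directions below belong to the libraries as labelled. All 6 epithelial markers were tested, and 1 of them, the cadherin gene CDH1, was over 2-fold higher in both hairpin libraries (5201 and 4565 counts, against 1877 in the control; log2 folds 1.23 and 1.10). EPCAM had 4377 and 2951 counts, against 2131 in the control (log2 folds 0.80 and 0.28). The keratin genes KRT7 (−0.22 and −0.78) and KRT18 (−0.25 and −0.52) were lower in both hairpin libraries. KRT8 (0.16 and −0.51) and KRT19 (1.11 and −0.30) were higher with shRNA 1 and lower with shRNA 2. The list's median log2 folds were 0.48 and −0.40, so the epithelial markers did not move together. The mesenchymal markers VIM, CDH2 and FN1 were all over 2-fold lower in both hairpin libraries (medians −3.08 and −5.79). FN1 had 303700 and 271305 counts, against 908025 in the control. Of all tested genes 4.5% were at least 2-fold lower and 5.29% at least 2-fold higher in both. Summed over 5 leukocyte markers there were 24, 318 and 42 counts (shRNA 1, shRNA 2, control), of which the myeloid integrin gene ITGAM gave 6, 288 and 19; over 4 endothelial markers there were 59, 124 and 37, and over 5 fibroblast markers 2, 5 and 43. The part of these in the results below was not tested. In bulk RNA, fewer cells with a transcript and less transcript per cell cannot be told apart.

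When free zinc is high, MTF1 moves to the nucleus and binds metal response elements in the promoters of metallothionein genes and of SLC30A1. Metallothioneins then buffer the metal, and the exporter removes it. Glucocorticoids and oxidants also raise metallothionein transcription.

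The coding sequences show the cysteine codons of the family and how alike its copies are. They are given for the 3 copies with counts and for MT1E, a copy at 0 counts, from GENCODE release 29, 5′ to 3′ without the stop codon. Capitals mark in-frame cysteine codons (TGC or TGT).
MT2A: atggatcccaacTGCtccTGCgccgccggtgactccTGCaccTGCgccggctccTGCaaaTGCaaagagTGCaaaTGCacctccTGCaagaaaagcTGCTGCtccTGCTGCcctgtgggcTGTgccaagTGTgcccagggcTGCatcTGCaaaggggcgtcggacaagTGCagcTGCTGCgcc
MT1F: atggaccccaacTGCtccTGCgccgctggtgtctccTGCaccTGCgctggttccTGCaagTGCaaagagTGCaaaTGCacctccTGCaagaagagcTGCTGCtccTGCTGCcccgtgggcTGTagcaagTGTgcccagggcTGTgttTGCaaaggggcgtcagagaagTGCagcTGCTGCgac
MT1X: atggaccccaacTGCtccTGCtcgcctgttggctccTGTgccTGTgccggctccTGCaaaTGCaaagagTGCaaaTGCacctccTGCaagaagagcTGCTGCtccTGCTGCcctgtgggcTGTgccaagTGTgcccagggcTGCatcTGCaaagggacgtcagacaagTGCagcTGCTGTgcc
MT1E: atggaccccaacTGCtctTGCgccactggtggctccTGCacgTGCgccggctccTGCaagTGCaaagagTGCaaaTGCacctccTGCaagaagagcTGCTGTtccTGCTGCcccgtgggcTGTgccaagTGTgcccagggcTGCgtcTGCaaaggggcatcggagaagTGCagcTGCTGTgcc
Each of the 7 metallothionein genes had 61 codons, and 20 of these (32.8%) coded for cysteine. MT2A and MT1X shared 169 of 183 bases (92.3%) with a longest identical run of 63 bases, MT2A and MT1F shared 167 bases (91.3%), and MT2A and MT1E 169 bases (92.3%). A stretch inside such a run can come from several genes. Over whole transcripts, however, the copies differed more. Of all distinct 50-base stretches of MT2A transcripts, 3.02% also occurred in a transcript of another gene, against 1.22% for MT1F, 18.3% for MT1X, 7.1% for MT1E, 16.5% for MT1G, 9.87% for MT1M and 5.76% for MT1A. For stretches of 100 bases this held for 11.3% of MT1X, all shared with 1 overlapping non-coding gene, and for 0% of the other 6. The sources used here give neither read length nor the treatment of reads with several matches, so a copy's count may still include reads of another or lack reads of its own.

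Metal response element letters were looked for in the promoters because MT2A and MT1X were both lower in the hairpin libraries. The 250 bases before the RefSeq start (GRCh38.p14) were at hand for 4 of the 9 genes, and those of the 3 that held a match are printed 5′ to 3′ on the gene's strand. Capitals mark TGCACNC or TGCGCNC on either strand, and no matches overlapped each other. MT2A lies at chr16:56608334-56608583 (plus strand), MT1X at chr16:56682220-56682469 (plus strand) and SLC30A1 at chr1:211579162-211579411 (minus strand). The RefSeq start is not always the deposited start. The MT2A window lies inside the deposited span of that gene, which starts at 56608199. The MT1X window runs past that gene's deposited start at 56682424. The SLC30A1 window lies wholly before that gene's deposited start at 211578742 on the minus strand. Relative to the deposited genes, the windows are thus not placed alike.
MT2A: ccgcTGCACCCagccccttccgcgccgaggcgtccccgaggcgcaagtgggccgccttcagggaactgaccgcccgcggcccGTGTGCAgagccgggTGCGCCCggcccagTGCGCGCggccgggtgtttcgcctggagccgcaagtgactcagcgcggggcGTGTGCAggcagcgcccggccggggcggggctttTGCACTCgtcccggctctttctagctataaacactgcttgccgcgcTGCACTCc
MT1X: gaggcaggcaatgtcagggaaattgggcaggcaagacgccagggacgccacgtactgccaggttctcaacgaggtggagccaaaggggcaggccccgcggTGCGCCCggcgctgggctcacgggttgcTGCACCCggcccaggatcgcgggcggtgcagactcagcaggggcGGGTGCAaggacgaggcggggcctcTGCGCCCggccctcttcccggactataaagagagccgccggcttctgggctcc
SLC30A1: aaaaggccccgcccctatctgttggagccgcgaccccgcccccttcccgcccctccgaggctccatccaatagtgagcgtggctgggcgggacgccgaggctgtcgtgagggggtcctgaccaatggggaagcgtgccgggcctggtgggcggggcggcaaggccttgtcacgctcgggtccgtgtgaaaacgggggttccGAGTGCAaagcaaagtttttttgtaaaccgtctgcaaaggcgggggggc
MT2A held 7 matches, MT1X 4, SLC30A1 1 and MTF1 0. Of 35116 RefSeq promoters of the same length, 24.8% held at least 1 match, 0.37% held 4 or more and 0.0313% held 7 or more. A match is a description of letters and not of binding. No window was at hand for MT1F (ratios to the control 0.823 with shRNA 1 and 0.539 with shRNA 2), nor for MT1A, MT1E, MT1G and MT1M. Whether matches go with the folds was therefore not tested.

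MT2A was the dominant metallothionein transcript and was lower in both hairpin libraries. MT2A (ENSG00000125148; hg38, chromosome 16, 56608199 to 56609497, protein coding) had 5862 counts with shRNA 1 and 5237 with shRNA 2, against 14229 in the control. It took 0.0332% and 0.0323% of the hairpin libraries and 0.0866% of the control, where it was gene number 74 by count, against 425 with shRNA 1 and 447 with shRNA 2. Scaled with TMM factors, which correct for library size and composition, it stood at 326 and 303 CPM in the hairpin libraries and 937 CPM in the control. Both hairpin libraries lay far below the control and close to each other.

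The size of the MT2A difference was 2.87-fold lower with shRNA 1 (ratio 0.348, 95% counting interval 0.338 to 0.359) and 3.09-fold lower with shRNA 2 (ratio 0.324, interval 0.314 to 0.334). These intervals cover counting error only. The mean log2 fold was −1.57 ± 0.07 (SD, n = 2), so the difference from the control was larger than that between the hairpins. In edgeR's quasi-likelihood test of both hairpin libraries against the control, the log2 fold was −1.57 (SE 0.36), with an unadjusted p of 0.00573 and a Benjamini-Hochberg adjusted p of 0.198 over all genes. It therefore did not pass at 0.05. DESeq2 gave an adjusted p of 0.00700 and limma-voom 0.241, and over the 7 fits run the adjusted p lay between 0.00700 and 0.747.

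MT1X, a further copy in the same cluster, was lower by a like factor at a far lower level. MT1X (ENSG00000187193; chromosome 16, 56682424 to 56684196, protein coding) had 19 and 20 counts with shRNA 1 and shRNA 2, against 50 in the control. Its scaled level was 1.06 and 1.16 CPM in the hairpin libraries and 3.29 CPM in the control. The ratios were 0.321 (counting interval 0.179 to 0.554) and 0.352 (0.198 to 0.602), with a mean log2 fold of −1.48 ± 0.08 (SD, n = 2). edgeR gave a log2 fold of −1.57 (SE 0.64) and an adjusted p of 0.504, so MT1X did not pass. Of its 1773 merged exon bases 321 (18.1%) overlap the non-coding gene RP11-343H19.2 on the same strand, which had 0 counts in all 3 libraries. MT1X also shares 50-base stretches with MT2A, which had far more counts. Whether MT2A reads add to the MT1X counts cannot be told, so the like factor is not a separate result.

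MT1F was lower mainly in the shRNA 2 library. MT1F (ENSG00000198417; chromosome 16, 56657694 to 56660698, protein coding) had 151 and 95 counts with shRNA 1 and shRNA 2, against 155 in the control. The ratio was 0.823 with shRNA 1 (counting interval 0.654 to 1.04), which reaches 1, and 0.539 with shRNA 2 (0.413 to 0.700). Set directly against each other, shRNA 2 stood at 0.655 of shRNA 1 (interval 0.501 to 0.852), a difference between single libraries. The mean log2 fold of −0.58 ± 0.42 (SD, n = 2) had an adjusted p of 0.842 by edgeR.

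The other metallothionein members were at or near 0. MT1E (ENSG00000169715; chromosome 16, 56625475 to 56627112), MT1G (ENSG00000125144; 56666731 to 56668065) and MT1M (ENSG00000205364; 56632233 to 56633986) had 0 counts in every library. A count of 0 allows up to 3 counts, or 0.170 and 0.185 CPM with shRNA 1 and shRNA 2 and 0.183 CPM in the control, before TMM scaling. That limit covers counting error only. The files do not show whether reads that match several copies were discarded, so a count of 0 does not show that a copy was silent. MT1A (ENSG00000205362) had 1 count with shRNA 1 and 0 with shRNA 2, against 0 in the control. No fold is given for these 4 genes. The deposited position of MT1A runs from 56638666 to 56750276, which spans 8 other metallothionein rows including MT1F and MT1X, whereas release 29 ends the gene at 56640087. Of the other members, MT1F and MT1X (with counts) and MT1G (0 counts) lie inside that span, and MT2A (with counts), MT1E and MT1M (0 counts) lie outside it.

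**Figure D1:**
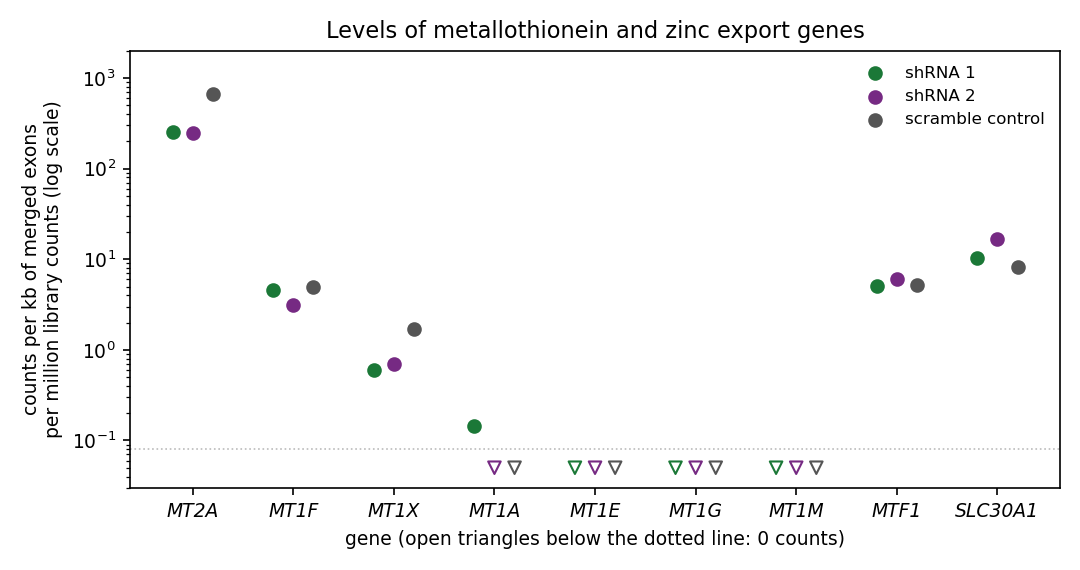
Level of each of the 9 genes (x axis) as counts per kilobase of merged exons (y axis, log scale), 1 point per library. The shRNA 1, shRNA 2 and scramble control libraries were scaled to CPM by library totals, without TMM factors. Open triangles mark 0 counts. MT2A stands above all other members in each library, and its hairpin points (255 and 249) lie below the control point (667), while MT1E, MT1G and MT1M have 0 counts throughout.

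Levels were compared between genes per kilobase. The authors' FPKM were not used for this, because the gene length they imply equals the summed length of all distinct annotated exons, overlaps counted again, to within 1% for 86.5% of 10869 genes with over 100 control counts. For 6.09% of those genes it equals the merged exons. Counts per kilobase of merged exons, scaled to CPM by library totals without TMM factors, were computed in their place. Between libraries these levels therefore differ from the TMM-scaled ratios given elsewhere. On that scale MT2A stood at 255 and 249 with shRNA 1 and shRNA 2, against 667 in the control, while its deposited FPKM were 108, 105 and 282 in the same order. SLC30A1 came next at 10.4 and 16.7, against 8.23 in the control.

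The remaining order was MTF1, MT1F and MT1X. MTF1 stood at 5.06 and 6.10 with shRNA 1 and shRNA 2 and 5.14 in the control, and MT1F at 4.52 and 3.10, against 5.00 in the control. MTF1 and MT1F could not be separated by counting error with shRNA 1 (ratio of levels 1.12, interval 0.937 to 1.34) or in the control (1.03, 0.862 to 1.23), but could with shRNA 2 (1.97, 1.59 to 2.46). MT1X was lowest at 0.606 and 0.696, against 1.72 in the control. The level of MT2A over that of SLC30A1 was 24.6 with shRNA 1 (23.0 to 26.4) and 14.9 with shRNA 2 (14.1 to 15.8), against 81.0 in the control (75.3 to 87.4).

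Because copies can exchange reads, the family was also summed. All 12 metallothionein genes annotated as protein coding together had 6035 and 5352 counts with shRNA 1 and shRNA 2, against 14435 in the control. The sum stood at 0.353 (counting interval 0.343 to 0.364) and 0.326 (0.316 to 0.337) of the control. MT2A made up 97.1% and 97.9% of it in the hairpin libraries and 98.6% in the control. Without MT2A, 173 and 115 counts remained, against 206 in the control, with ratios of 0.710 (0.576 to 0.873) and 0.491 (0.387 to 0.620). Nearly all of this rest was MT1F (151, 95 and 155 counts with shRNA 1, shRNA 2 and control) and MT1X (19, 20 and 50), both described above. It can also hold MT2A reads counted to another copy. The rest is therefore not a separate result on the family.

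The zinc sensor gene stood close to the control level. MTF1 (ENSG00000188786; chromosome 1, 37809567 to 37859620, protein coding) had 717 and 794 counts with shRNA 1 and shRNA 2, against 677 in the control. Its ratios were 0.895 (counting interval 0.805 to 0.996) and 1.03 (0.930 to 1.14), on either side of 1. The mean log2 fold was −0.06 ± 0.14 (SD, n = 2), with an edgeR adjusted p of 0.976, and its sign depended on the scaling. MTF1 activity is set largely by zinc binding and location in the cell, which RNA counts do not measure.

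SLC30A1 was higher, more so with shRNA 2. SLC30A1 (ENSG00000170385; chromosome 1, 211571568 to 211578742, protein coding) had 1003 and 1482 counts with shRNA 1 and shRNA 2, against 740 in the control. Scaled, these were 55.8 and 85.9 CPM in the hairpin libraries and 48.7 CPM in the control. The ratios were 1.15 (counting interval 1.04 to 1.26) and 1.76 (1.61 to 1.93), and shRNA 2 stood at 1.54 times shRNA 1 (1.42 to 1.67). The mean log2 fold of 0.51 ± 0.44 (SD, n = 2) was little larger than the SD of the hairpin libraries, with an adjusted p of 0.767 by edgeR. SLC30A1 stood above the control and MT2A below it in both hairpin libraries, SLC30A1 only slightly with shRNA 1. The part of MTF1 in either was not tested.

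**Figure D2:**
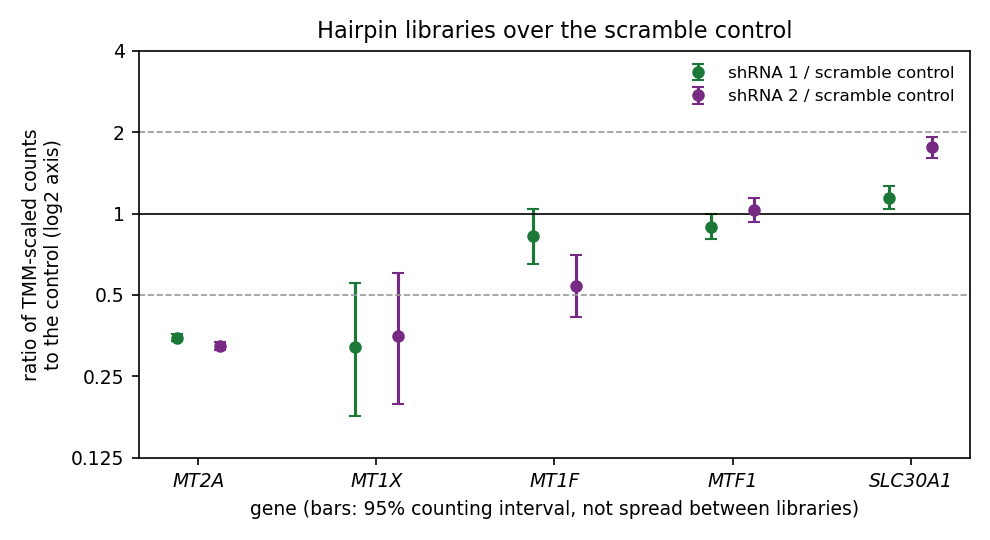
Ratio of TMM-scaled counts of the shRNA 1 and shRNA 2 libraries to the scramble control (y axis, log2 scale) for the 5 tested members (x axis); points are single libraries, bars are 95% counting intervals, and dashed lines mark 2-fold. MT2A (0.348 and 0.324) and MT1X (0.321 and 0.352) lie below the lower dashed line with both hairpins, and SLC30A1 (1.15 and 1.76) lies above 1.

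By a rule of size, at least 2-fold from the control with both hairpins in the same direction, 2 of the 5 tested members were lower (MT2A and MT1X) and 0 were higher. Among all tested genes 4.5% were lower and 5.29% higher by that rule, both comparisons using the same control library. Taken alone, shRNA 2 had 1962 genes higher and 1325 lower by at least 2-fold, and shRNA 1 had 1199 and 1116. The median log2 folds of the 5 members were −0.28 and −0.88 with shRNA 1 and shRNA 2, against 0.01 and 0.04 over all tested genes. Both medians are the values of MT1F. The metallothionein copies may share reads, so the 5 members are not independent of each other. By edgeR 0 of the 5 members passed at an adjusted p below 0.05, as 0.0397% of all tested genes did. At an unadjusted p below 0.05, 1 of the 5 passed by edgeR (MT2A), against 10.2% of all genes. DESeq2 passed 1 (MT2A), against 3.56% of the genes with an adjusted p, and limma-voom passed 0, against 0% of all genes.

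The metallothionein cluster was set beside its surroundings. Of 14 further metallothionein genes and pseudogenes listed, 10 had a row in the table, and 9 of these had 0 counts in all libraries. The 1 with counts, MT3, the brain-type metallothionein gene, had 2 and 0 counts with shRNA 1 and shRNA 2, against 1 in the control. Within 250 kb of the cluster lay 17 other genes, of which 8 were tested, and 0 of the 8 were 2-fold higher or lower with both hairpins. Of all tested genes 4.5% were lower and 5.29% higher by that rule, so 0 of 8 does not set the neighbours apart. NUDT21, a gene of messenger RNA 3′ end cleavage, had log2 folds of 0.12 and −0.25, and the nuclear pore gene NUP93 −0.29 and −0.58. The neighbours' median log2 folds were 0.08 and 0.00.

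**Figure D3:**
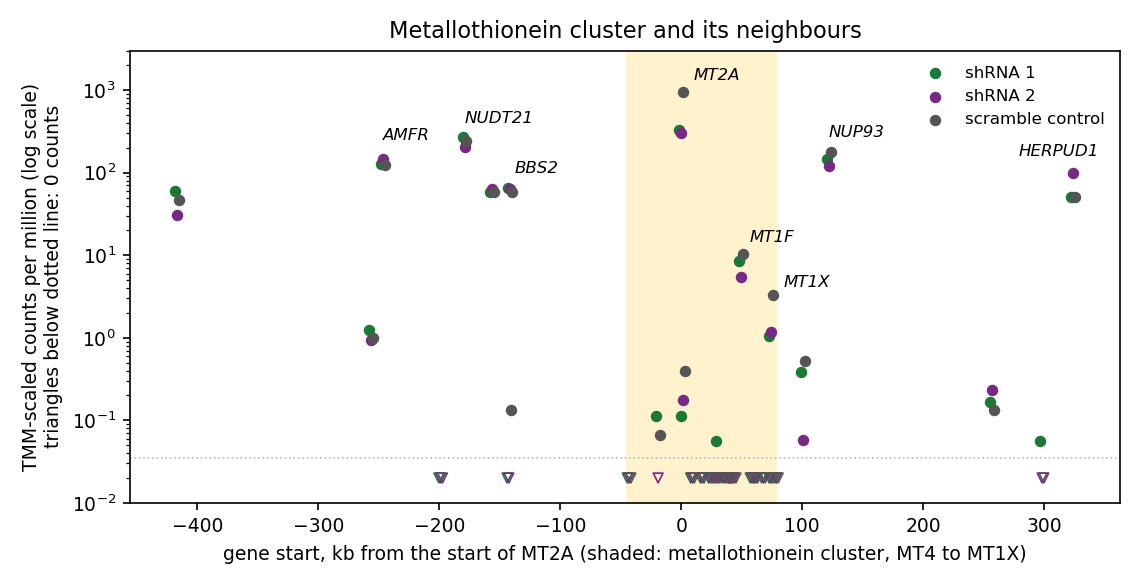
TMM-scaled counts (CPM, y axis, log scale) of the metallothionein genes and of the genes within 250 kb of their cluster on chromosome 16, by distance of the gene start from that of MT2A in kb (x axis), in the shRNA 1, shRNA 2 and scramble control libraries. Open triangles mark 0 counts, and the shaded band is the cluster. MT2A, MT1F and MT1X stand above a row of copies with 0 counts, and the hairpin points of MT2A (326 and 303) lie below its control point (937).

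The SLC30 and SLC39 zinc transporters, like SLC30A1, did not meet the rule of size. Of all tested genes 4.5% were lower and 5.29% higher by it. The SLC30 family mostly, but not in every member, moves zinc out of the cytosol into vesicles or out of the cell. Of 9 other SLC30 genes 7 were tested and 0 were 2-fold from the control with both hairpins. Their median log2 folds were −0.11 and 0.01. The most abundant were SLC30A9 (log2 folds 0.15 and 0.09) and SLC30A6 (0.27 and 0.01), which works in the secretory pathway. SLC30A2, picked with its values in view, had 28 and 91 counts with shRNA 1 and shRNA 2, against 13 in the control (log2 folds 0.78 and 2.47, edgeR adjusted p = 0.622).

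Of 14 SLC39 genes, which bring zinc into the cytosol, 11 were tested and 0 passed the rule of size. The median log2 folds were −0.51 and −0.30, against 0.01 and 0.04 over all tested genes. With each hairpin 3 of the 11 were above 0, as were 7643 (shRNA 1) and 7950 (shRNA 2) of all 15132 tested genes. These were SLC39A1, SLC39A8 and SLC39A9 with shRNA 1 and SLC39A1, SLC39A4 and SLC39A14 with shRNA 2. SLC39A14, which carries zinc, iron and manganese, had 2393 and 6589 counts, against 3470 in the control, with log2 folds of −0.78 and 0.74. The hairpins thus stood on opposite sides of the control for this gene. SLC39A1 had log2 folds of 0.18 and 0.17. SLC39A10, likewise picked with its values in view, had 856 and 301 counts, against 941 in the control, with log2 folds of −0.38 and −1.82 (edgeR adjusted p = 0.725). None of the tested genes in these 2 lists passed edgeR's test at 0.05, adjusted or not, against 0.0397% (adjusted) and 10.2% (unadjusted) of all tested genes. With so few genes, that does not set these families apart.

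Genes of copper and iron were compared because metallothioneins also bind copper and because the carriers overlap (SLC39A14 is on the iron list too). Of 13 tested copper genes 1 was higher by the rule of size and 0 were lower, against 5.29% and 4.5% of all tested genes. The median log2 folds were −0.02 and −0.16. The higher gene was STEAP4, a reductase of iron and copper, with 307 and 260 counts, against 18 in the control. It had log2 folds of 3.72 and 3.54 (edgeR adjusted p = 0.0950, DESeq2 adjusted p = 2.9e-05). Of 9 tested iron genes 0 were called, with medians of −0.22 and −0.26. The ferritin light chain gene FTL had log2 folds of −0.70 and −0.18, and the ferritin receptor gene NCOA4 −0.20 and −0.26. The ferritin heavy chain gene FTH1, picked with its values in view, had 4532 and 10114 counts, against 3018 in the control (log2 folds 0.34 and 1.56).

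**Figure D4:**
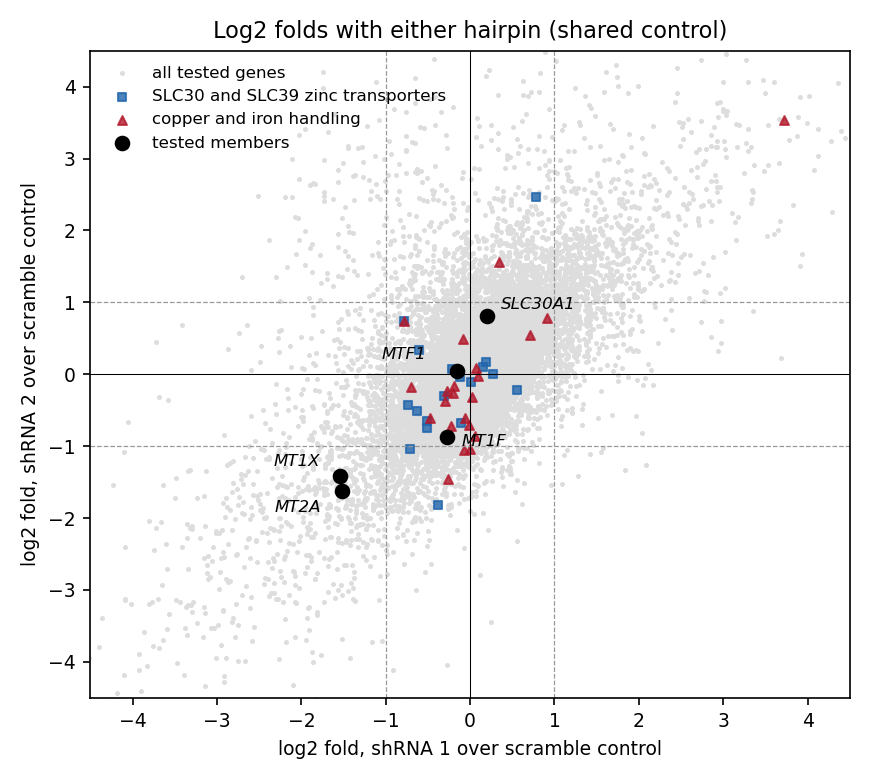
Log2 fold of each tested gene with shRNA 1 (x axis) and shRNA 2 (y axis) over the scramble control that both share; grey points are all 15132 tested genes, of which 103 lie outside the axes, and coloured points are the tested members and the zinc, copper and iron lists. Dashed lines mark 2-fold. MT2A and MT1X lie in the lower left, and STEAP4 is the red triangle at the upper right (3.72 and 3.54).

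Genes of other known inducers of metallothioneins were listed beside them. Of 9 tested glucocorticoid-responsive genes 2 were higher (CEBPD, log2 folds 1.16 and 1.46, and ERRFI1, 1.18 and 1.22) and 1 was lower by the rule of size. Of all tested genes 5.29% were higher and 4.5% lower by that rule. The lower gene was the kinase gene SGK1, with 132 and 139 counts, against 1150 in the control (log2 folds −3.34 and −3.21, edgeR adjusted p = 0.0696, DESeq2 adjusted p = 3.2e-08). The list's medians were 0.54 and −0.04. The glucocorticoid receptor gene NR3C1 had log2 folds of −0.04 and 0.05, and STAT3, another regulator of metallothionein genes, 0.08 and 0.29.

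Of 11 tested genes of metal and oxidant stress, 1 was higher by the rule of size and 0 were lower, against 5.29% and 4.5% of all tested genes. The medians were −0.07 and −0.01. The higher gene was the cystine carrier gene SLC7A11, with 425 and 2836 counts, against 89 in the control (edgeR adjusted p = 0.370). The haem oxygenase gene HMOX1, a metal-induced gene picked with its values in view, had 517 and 1764 counts, against 1952 in the control, with log2 folds of −2.15 and −0.33. No gene of these inducer lists passed edgeR's test after adjustment, against 0.0397% of all tested genes. SGK1 was the 1 that passed with DESeq2, against 3.56% of the genes with an adjusted p.

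The genes most like MT2A in pattern were found by the distance between their 2 log2 folds and those of MT2A, over 3 libraries and 10072 other named genes whose mean reached 10 CPM. The nearest were SYDE1 (log2 folds −1.49 and −1.62, distance 0.04), the membrane-bound matrix metalloproteinase gene MMP14 (−1.59 and −1.56, 0.10), the collagen VI gene COL6A2 (−1.58 and −1.54, 0.10), MCC (−1.56 and −1.75, 0.12) and PGBD5 (−1.45 and −1.75, 0.14). With 2 log2 folds per gene, many genes lie close to any point, and the likeness describes these libraries only.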

How the data were processed

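The authors deposited whole-number read counts and FPKM values per gene for 3 libraries, per the file headers. TopHat2 2.0.9 and build hg38 are named in the submitters' processing notes; the library kit is stranded, per the labels. The sources used here do not give the counting tool, its strand setting, the annotation release or the read length. FPKM values, deposited by the authors, divide counts by gene length and library total, and were printed for MT2A, compared with exon lengths and used, as an alternative to counts, for ratios. TGFB1 was left out because its row is split across 4 lines.

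Genes whose mean reached 1 CPM were tested with edgeR 4.0.16 by a two-sided quasi-likelihood test, with Benjamini-Hochberg adjustment over all 15132 genes. TMM factors were 1.02, 1.06 and 0.924 for shRNA 1, shRNA 2 and control. The test has 1 residual degree of freedom, from the hairpin libraries, and takes the lone control to vary like them. Its recovery of fold changes was checked on simulated data. In these the control did vary like the hairpin libraries, so that assumption was not checked. Log2 folds per hairpin use a prior count of 2. Ratios carry exact conditional binomial 95% intervals, which cover counting error only. DESeq2 1.42.0, limma 3.58.1, other scalings, filters and prior counts were alternatives. Exons, types and transcripts come from GENCODE release 29, in which 98.5% of the deposited gene identifiers were found. Promoters come from RefSeq.

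The members and lists were chosen with earlier results of these data known. Named genes are all members, LINC00958, up to 4 genes per list past the rule of size (largest smaller fold first) or else the 2 of highest mean level, and the 5 nearest to MT2A; other genes of these lists were picked with their values in view, as were the cell type markers named one by one.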

Additional observations from a re-analysis of the deposited data

How the results depend on the processing

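MT2A was lower in both hairpin libraries under every scaling run. Its ratios to the control were 0.383 and 0.373 with library totals, and of the 7 fits it passed with DESeq2 only. The family sum stood at 0.389 and 0.376 of the control with library totals. With TMM factors and without MT2A it stood at 0.710 and 0.491, and pseudogenes added no counts. The log2 fold of MTF1 changed sign with library totals, to 0.12, and SLC30A1 reached 2.03 times the control with shRNA 2. Library totals move the median of all genes to 0.14 and 0.24 (log2), and the share of higher genes among those called by size to 65.1% from 54.0%.

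Of all genes, edgeR's 6 calls became 0 without the low-count filter (1461 at an unadjusted p below 0.05), 0 with a mean of at least 5 CPM (1240) and 0 with limma-voom (1424), and 528 with DESeq2; the cause was not tested. By size, 800 genes were higher and 681 lower; without the filter there were 1280 and 1525, and at 5 CPM, where fewer genes are tested, 443 lower. Without shRNA 1 there were 1962 higher and 1325 lower genes, and without shRNA 2 1199 and 1116, values with no test since no residual degree of freedom remains. MT1X, with 19 to 50 counts, is limited by depth and was not tested at 5 CPM.

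No paired analysis was possible because the control is 1 library.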
